A study of Vitis vinifera with 27 samples.

Results

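UFGT is the grapevine gene for UDP-glucose:flavonoid 3-O-glucosyltransferase, annotated in the deposited files as anthocyanidin 3-O-glucosyltransferase. It was taken by its symbol, and was 1 gene of the 27096 genes listed in at least 1 of the 27 berry samples. The gene was chosen by its measured FPKM and expected counts, which in earlier results of these data differed between cultivars, so its own levels are described without a test. RNA was sequenced from ripening berries of 3 Muscat table grape cultivars (Vitis vinifera) at 3 stages, with 3 replicates in each of the 9 groups of cultivar and stage. The Muscat aroma is weaker in Italia than in the other cultivars, and only Zaomeiguixiang is described as red or purple, the skin of Xiangfei being green to golden. Italia is widely grown as a white table grape. EL35 is the stage at which berries start to colour and soften, EL36 is the completion of that change (veraison), and EL38 is harvest ripeness. All vines grew in the same vineyard under a plastic cover, and no treatment was given. Each cultivar is 1 genotype, and each replicate was a pool of randomly picked berries. The sources used here do not say whether the replicates came from separate vines, and p-values measure the spread between these pools, which may be technical. The study compared the cultivars for their monoterpene aroma.

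Anthocyanins are the red and purple pigments that dark grapes store in the vacuoles of their skin cells. Chalcone synthase (CHS), chalcone isomerase (CHI), flavanone 3-hydroxylase (F3H), flavonoid hydroxylases, dihydroflavonol reductase (DFR) and leucoanthocyanidin dioxygenase (LDOX) make unstable anthocyanidins, and UFGT attaches a glucose to position 3, which gives the stable pigment. The earlier enzymes also serve flavonols and tannins, whereas UFGT serves anthocyanins, and in grape it is known to be switched on by MYB factors of the MYBA type from the onset of ripening in dark berries. Later in the route, FAOMT methylates anthocyanins, and the glutathione S-transferase GST4 and anthoMATE transporters take part in their movement into the vacuole.

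The summed expected counts ran from 16908559 to 27186952 per library, with a median of 23335793. The values are expected counts, the number of fragments that the authors' software assigned to a gene, and FPKM, which are fragments scaled to transcript length and library size. The files list seed storage and oil body genes very unequally, which touches genes that seeds share with skins. The summed FPKM of 16 such genes was 48140 in Italia EL35 replicate 3, 16450 in Zaomeiguixiang EL35 replicate 3 and 2037 in Xiangfei EL38 replicate 3, against a median of 453 in Xiangfei, 252 in Italia and 279 in Zaomeiguixiang. The summed FPKM of 14 skin cuticle genes ran from 22.2 to 356 in Xiangfei, from 45.4 to 391 in Italia and from 17.3 to 185 in Zaomeiguixiang, so the cultivars overlapped in that measure. Zaomeiguixiang EL35 replicate 3, the seed-rich library, lay between the other replicates of its group in UFGT. The methods of the study do not say whether seeds were removed before RNA extraction. In RNA from berries, fewer skin cells and less RNA per cell cannot be told apart.

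UFGT was high in every Zaomeiguixiang library and close to 0 in every library of the other cultivars. At EL35 the Zaomeiguixiang replicates had 21.77, 166.32 and 90.3 FPKM of UFGT, from 790, 4275 and 3346 expected counts. At EL36 they had 166.34, 79.55 and 64.41 FPKM, from 5418, 2679 and 2284 counts. At EL38 they had 308.11, 170.59 and 99.72 FPKM, from 7814, 5905 and 2241 counts. Replicate 1 was the lowest of the EL35 group and the highest of the groups at EL36 and EL38, and the 3 stages overlapped. Between the lowest and the highest of the 9 Zaomeiguixiang libraries, UFGT differed 14.2-fold in FPKM.

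In Xiangfei, UFGT was at 0.16, 0.07 and 0.16 FPKM at EL35 (5, 2 and 5 counts), at 0.78, 0.15 and 0 at EL36 (24, 5 and 0 counts), and at 0, 0 and 0.27 at EL38 (0, 0 and 9 counts). In Italia it was at 0.18, 0.22 and 0.16 FPKM at EL35 (5, 6 and 5 counts), at 0, 0.12 and 0.28 at EL36 (0, 4 and 9 counts), and at 0.28, 0.22 and 0.13 at EL38 (7, 7 and 4 counts). These 18 libraries together held 50 UFGT counts in Xiangfei and 47 in Italia, against 34752 in the 9 Zaomeiguixiang libraries. Whether the few counts in Xiangfei and Italia are expression or carry-over between libraries was not tested. In the 4 libraries without a UFGT count, 0 counts allow a share of up to 1.29e-05% to 1.43e-05% of all counts. The highest value outside Zaomeiguixiang, in Xiangfei EL36 replicate 1, was 0.000104% of the counts of that library (95% Wilson interval 6.99e-05% to 0.000155%), and the lowest value in Zaomeiguixiang, in EL35 replicate 1, was 0.00295% (0.00275% to 0.00317%). Intervals and limits of this kind cover counting error only. The lowest Zaomeiguixiang library was 27.9 times the highest library of the other cultivars in FPKM.

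**Figure D1:**
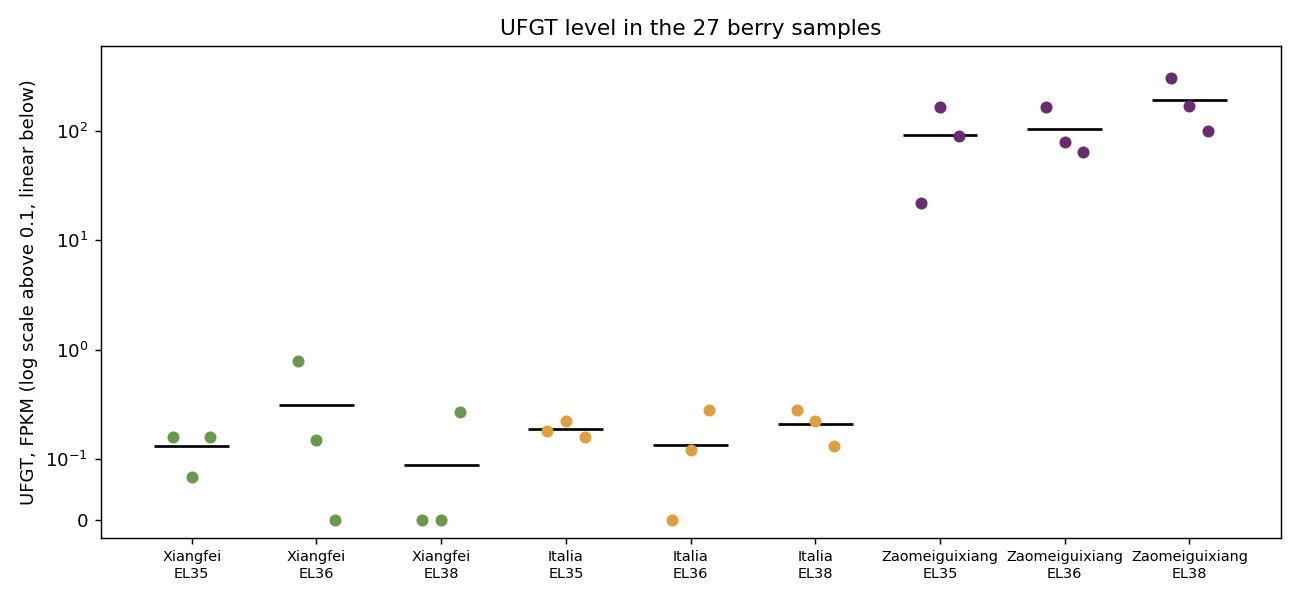
UFGT level in FPKM (vertical axis, logarithmic above 0.1 and linear below) in each of the 27 berry samples (points) by cultivar and stage, with horizontal bars at the mean of the 3 replicates. The 9 Zaomeiguixiang samples lie between 21.77 and 308.11 FPKM, and the 18 Xiangfei and Italia samples lie between 0 and 0.78 FPKM.

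By mean FPKM of UFGT the order of the groups was Zaomeiguixiang EL38 at 193 ± 106 (SD, n = 3 in each group), Zaomeiguixiang EL36 at 103 ± 55.0, Zaomeiguixiang EL35 at 92.8 ± 72.3, Xiangfei EL36 at 0.31 ± 0.414, Italia EL38 at 0.21 ± 0.0755, Italia EL35 at 0.187 ± 0.0306, Italia EL36 at 0.133 ± 0.14, Xiangfei EL35 at 0.13 ± 0.052 and Xiangfei EL38 at 0.09 ± 0.156. Of the neighbours in that order, only Zaomeiguixiang EL35 and Xiangfei EL36 had ranges that did not overlap. The ratio of the mean UFGT FPKM of Zaomeiguixiang to that of Xiangfei was 714 at EL35, 334 at EL36 and 2140 at EL38, and to that of Italia it was 497, 776 and 918. The denominators of these ratios rest on 9 to 29 counts summed over 3 libraries, and the ratios are rough for that reason. As differences of the group means of log2(FPKM + 1), a scale that understates ratios over values below 1, the same comparisons gave 5.96, 6.24 and 7.33 over Xiangfei and 5.89, 6.41 and 7.18 over Italia.

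Within Zaomeiguixiang, the mean UFGT FPKM at EL38 was 2.08 times that at EL35, a difference of 1.31 in mean log2(FPKM + 1) beside a pooled SD of 1.19, and the ranges overlapped. From EL35 to EL36 the difference was 0.45 beside a pooled SD of 1.16. The EL36 difference turned to -0.37 when Zaomeiguixiang EL35 replicate 1 was left out, and the EL38 difference ran from 0.50 to 1.94 over the replicates left out in turn, with 0.50 reached without the same replicate. UFGT was thus already high at the first stage sampled, and the ranges of all 3 stages overlapped. Xiangfei and Italia overlapped at each stage, with differences in mean log2(FPKM + 1), as Italia over Xiangfei, of 0.07 at EL35, -0.17 at EL36 and 0.16 at EL38. At EL36 that difference turned to 0.07 without Xiangfei EL36 replicate 1.

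Ranked by FPKM within a library, UFGT stood between place 316 in Zaomeiguixiang EL38 replicate 1 and place 4941 in Zaomeiguixiang EL35 replicate 1, and between places 15969 and 19851 in the Xiangfei and Italia libraries that listed it. Of 15323 genes whose mean reached 10 counts and 1 FPKM, 53 (0.346%) had all 9 Zaomeiguixiang libraries above all 18 others, UFGT among them, and 20 (0.131%) had all 9 below. UFGT had rank 4 of the 15323 by the difference of mean log2(FPKM + 1), at 6.50, and rank 5 by the gap between the lowest Zaomeiguixiang and the highest other library. These places describe the values by which the gene was chosen. The means were taken over all 27 samples, so UFGT reached them through Zaomeiguixiang alone.

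The genes beside UFGT on the chromosome did not share its pattern. In the RefSeq gene order of the assembly ASM3070453v1, which is not the authors' build, 9 of the 10 nearest genes were listed in the files. LOC100256288 (exportin-1), next to UFGT on one side, had a mean of 17.9 FPKM in Zaomeiguixiang and 12.6 in the others. LOC100254624 (an ADP-ribosylation factor), next to it on the other side, had means of 31.2 and 26.0 FPKM. In each of the 9 neighbours the range of Zaomeiguixiang overlapped that of the others.

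Another 7 genes carried the same enzyme annotation as UFGT and were looked at for that reason after the files had been read. LOC100247914, the highest of them, reached 24.22 FPKM in an Italia EL38 library, with group means of 0.167 to 5.96 FPKM in Xiangfei, 1.98 to 13.1 in Italia and 0.193 to 8.93 in Zaomeiguixiang. VVGT6 had its highest value, 13.9 FPKM, in an Italia EL36 library and at most 4.73 FPKM in Zaomeiguixiang. LOC100249635 reached 7.91 FPKM in a Zaomeiguixiang EL36 library and 4.93 in Italia. LOC100254753 had 2.01 ± 0.354 FPKM (SD, n = 3) in Zaomeiguixiang EL36 and at most 0.53 FPKM in any library of the other groups. LOC100249544, LOC100258170 and LOC104880797 stayed below 1 FPKM in every library.

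The other genes of the flavonoid route were taken from a list by annotation of 85 genes, UFGT left out, of which 60 passed the filter on low counts and were tested by the quasi-likelihood method of edgeR on expected counts in 1 fit of all 27 samples. A gene was called where the |log2 fold change| was at least 1 and the Benjamini-Hochberg adjusted p over the 21152 genes tested was at most 0.001, the thresholds of the study, and the calls at an adjusted p of at most 0.05 are given beside these. All p-values below are such edgeR values, and the standard error (SE) was derived by dividing the absolute log2 fold change by the root of F. The 3 comparisons with Xiangfei share the Zaomeiguixiang libraries with the 3 comparisons with Italia.

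At the stricter threshold the calls were few. Of the 60 pathway genes, Zaomeiguixiang over Xiangfei gave 0 calls at EL35 (0.217% of all genes tested were called), 0 at EL36 (0.213%) and 1 at EL38 (0.284%), which was GST4. Unadjusted edgeR p-values under 0.05 were found for 14 of the 60 pathway genes at EL35 (11.7% of all genes) and 18 at EL36 (18.9%), and DESeq2 called 3 pathway genes at each of these stages (1.09% and 1.9% of all genes with an adjusted p). Zaomeiguixiang over Italia gave 1 call at EL35 (0.303%), which was LDOX, and 1 each at EL36 (0.321%) and EL38 (0.18%), which was GST4 at both stages. All 4 calls were higher in Zaomeiguixiang. The LDOX call at EL35 was lost when any replicate of its groups was left out, at adjusted p-values of 0.00104 to 0.0119, and so were the GST4 calls against Italia, at 0.00159 to 0.014 at EL36 and 0.00189 to 0.0149 at EL38. The GST4 call against Xiangfei was lost without Xiangfei EL38 replicate 1 or 2, at adjusted p-values of 0.00427 and 0.00462, and in the fit of the 6 samples alone.

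At an adjusted p of at most 0.05, more of the route was higher in Zaomeiguixiang. Over Xiangfei, 4 pathway genes were higher at EL35 (0.534% of all genes) and 0 lower (0.359%), 3 were higher at EL36 (1.21%) and 0 lower (1.43%), and 8 were higher at EL38 (1.92%) and 1 lower (4.15%). Over Italia, 4 were higher at EL35 (1.99%) and 0 lower (0.941%), 10 were higher at EL36 (1.76%) and 1 lower (0.908%), and 6 were higher at EL38 (0.86%) and 1 lower (0.534%). The median log2 fold change of the 60 genes over Xiangfei was 0.41, 0.21 and -0.23 at EL35, EL36 and EL38, beside 0.00, 0.00 and 0.05 over all genes tested. Over Italia it was 0.46, 0.72 and 0.12, beside 0.00, 0.06 and 0.00. The genes higher than in Xiangfei were GST4, FAOMT, 2 transporter genes and flavonoid 3',5'-hydroxylase genes, and those higher than in Italia also included LDOX, DFR, CHS3, LOC100245030 and the MYB gene LOC100853472. These calls depended on single libraries to different degrees. Over 12 alternatives for each call, or 11 where the count filter removed the gene from the fit of the 6 samples alone, the adjusted p stayed at most 0.05 in every alternative for GST4, save at EL35 against Xiangfei with 10, for LDOX against Italia at EL35, for LOC100250967 at EL38 against both cultivars, and for LOC100241335 and LOC109122765 at EL38 against Xiangfei. It did so in 4 to 10 alternatives for the other calls of Zaomeiguixiang described below.

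The first steps were present in all 3 cultivars. CHS3, the chalcone synthase gene with the highest mean FPKM, had 638 ± 442, 762 ± 409 and 739 ± 654 FPKM (SD, n = 3) in Zaomeiguixiang at EL35, EL36 and EL38, against 308 ± 361, 57.8 ± 38.1 and 32.5 ± 5.41 in Xiangfei and 344 ± 587, 19.1 ± 6.88 and 273 ± 133 in Italia. It was higher than in Italia at EL36 (log2 fold change 5.15, SE 1.4, adjusted p = 0.0433), and it missed that threshold against Xiangfei at EL38 (3.85, SE 1.3, adjusted p = 0.0777). The EL35 value of Italia rested on replicate 3, at 1021.04 FPKM of CHS3 against 7.51 and 2.36 in replicates 1 and 2, which is the library with the most seed transcripts, and the part of seeds in it was not tested. CHI lay between 56.0 and 184.62 FPKM in Zaomeiguixiang and between 9.76 and 113.68 in the others, and passed no threshold in the comparisons of Zaomeiguixiang.

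F3'H, which adds a hydroxyl group to the B-ring on the way to cyanidin pigments, was at 172 ± 76.6, 179 ± 69.6 and 173 ± 41.2 FPKM in Zaomeiguixiang and at 144 to 241 FPKM in the group means of the other cultivars, with log2 fold changes of -0.86 to -0.03 in the 6 comparisons. LOC100253950, annotated as the flavanone 3-dioxygenase (F3H) and named after its values had been seen, was between 36.41 and 255.69 FPKM in Zaomeiguixiang and between 28.37 and 173.1 in the others. LOC100264239, the listed gene of the F3H and flavonol synthase annotation with the highest mean, was at 159, 359 and 136 FPKM in Zaomeiguixiang at the 3 stages, at 97.1, 281 and 172 in Xiangfei and at 632, 118 and 120 in Italia. Transcripts of these steps were thus measured also in berries in which UFGT was close to 0.

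LDOX was lower in Italia than in the other cultivars, and DFR was so at EL36. LDOX, which forms the anthocyanidin that UFGT uses, had 255.57, 374.02 and 446.1 FPKM in Zaomeiguixiang at EL35 and 302.38, 254.5 and 158.89 in Xiangfei, but 10.53, 15.38 and 31.68 in Italia. Zaomeiguixiang exceeded Italia in LDOX at all stages (log2 fold changes 4.25, SE 0.68, adjusted p = 0.000712 at EL35, 3.21, SE 0.65, adjusted p = 0.00692 at EL36 and 2.82, SE 0.64, adjusted p = 0.0214 at EL38). Against Xiangfei the LDOX log2 fold changes were 0.48 (adjusted p = 0.79), 1.02 (0.368) and 0.61 (0.551). All 9 Italia libraries, at 10.53 to 48.82 FPKM of LDOX, lay below all 9 Xiangfei libraries, at 51.0 to 302.38 FPKM, while the UFGT levels of these cultivars overlapped. DFR, the step before LDOX, was higher in Zaomeiguixiang than in Italia at EL36 (log2 fold change 2.30, SE 0.54, adjusted p = 0.0209), at 132 ± 112 FPKM against 22.5 ± 9.60, and passed in no other comparison of Zaomeiguixiang. At EL38 the order of DFR was another, with Italia at 99.1 ± 26.7, Zaomeiguixiang at 65.5 ± 20.2 and Xiangfei at 32.8 ± 12.8 FPKM, and no difference between cultivars passed.

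**Figure D2:**
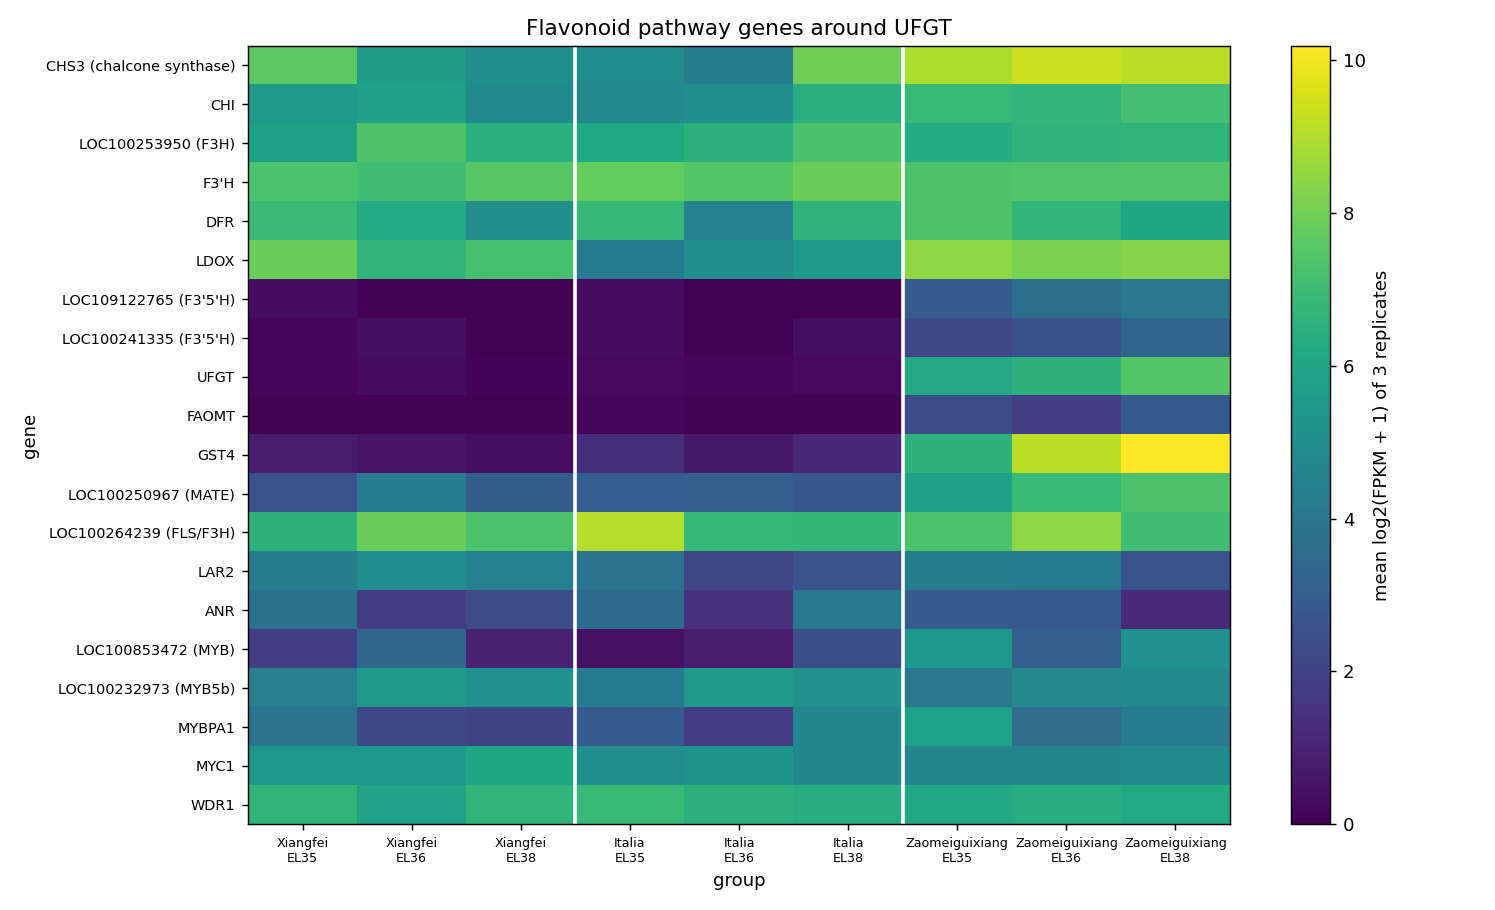
Mean log2(FPKM + 1) of 3 replicates (colour) of UFGT and 19 flavonoid pathway genes (rows, roughly in the order of the pathway, then transport, other branches and regulators) in the 9 groups (columns), with white lines between cultivars. The flavonoid 3',5'-hydroxylase rows stand between LDOX and UFGT, although these enzymes act before DFR. F3'H is bright in all columns, and CHI is less bright in Xiangfei and Italia than in Zaomeiguixiang. LDOX is darker in Italia than in the other cultivars. UFGT, FAOMT, GST4 and the flavonoid 3',5'-hydroxylase genes LOC109122765 and LOC100241335 are near 0 outside Zaomeiguixiang.

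Of the 44 listed genes whose mean reached 10 counts and 1 FPKM, 4 had all Zaomeiguixiang libraries above all others, as UFGT had (0.346% of all 15323 genes did), and 0 had all below (0.131%). They were GST4, FAOMT, LOC109122765 and the gene with the symbol F3'5'H. The mean was taken over all 27 samples, so a gene could pass this filter through its level in Zaomeiguixiang alone. Outside that cultivar, FAOMT, LOC109122765 and F3'5'H were at most 0.2, 0.98 and 0.89 FPKM, and GST4 was at most 1.97 FPKM. These counts therefore describe the values and are no test of the list. LOC109122765 and F3'5'H encode flavonoid 3',5'-hydroxylases, the enzymes that lead to the blue-purple delphinidin pigments.

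GST4 had 9.96, 376.26 and 204.79 FPKM in Zaomeiguixiang at EL35, 1090.4, 437.52 and 357.63 at EL36 and 2533.41, 1040.92 and 592.84 at EL38, and 0 to 1.97 FPKM in the 18 other libraries. The log2 fold changes over Xiangfei were 7.75 (SE 1.5, adjusted p = 0.00566), 9.85 (SE 1.6, adjusted p = 0.00104) and 11.46 (SE 1.7, adjusted p = 0.0003), and over Italia 7.10 (SE 1.4, adjusted p = 0.00511), 9.57 (SE 1.6, adjusted p = 0.000889) and 9.94 (SE 1.6, adjusted p = 0.000996). In Xiangfei, GST4 rested on 1 library at EL36 (replicate 1, 22 counts) and at EL38 (replicate 3, 14 counts), with 0 counts in the other replicates. Without that library the fitted log2 fold change was 15.78 at EL36 (adjusted p = 0.00153) and 16.65 at EL38 (adjusted p = 0.000738), which against libraries at 0 is no measured fold. As with UFGT, EL35 replicate 1 was the lowest Zaomeiguixiang library and EL38 replicate 1 the highest. The UFGT level divided by the GST4 level was 2.19, 0.442 and 0.441 at EL35, 0.153, 0.182 and 0.18 at EL36 and 0.122, 0.164 and 0.168 at EL38. All EL35 ratios of UFGT to GST4 were above all later ones, and the ratio held within 0.122 to 0.182 in the 6 later libraries while UFGT itself varied from 64.41 to 308.11 FPKM.

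FAOMT, which methylates the B-ring of anthocyanins, had 3.78, 2.22 and 7.3 FPKM in Zaomeiguixiang at EL35, 6.96, 1.92 and 0.98 at EL36 and 20.32, 5.32 and 2.06 at EL38, and at most 0.2 FPKM elsewhere. Its 3 libraries were all at 0 counts in Xiangfei EL35 and EL36 and in Italia EL36. Against these groups, with a floor of 3 counts over the group, FAOMT was at least 66.8-fold (adjusted p = 0.026), 46.0-fold (0.0223) and 47.2-fold (0.0172) higher in Zaomeiguixiang. The EL36 limits were 21.2 and 21.7 without Zaomeiguixiang EL36 replicate 1, and the EL35 limit ran from 45.5 to 78.8 over its replicates left out in turn. FAOMT was also higher at EL38 over Xiangfei (adjusted p = 0.0132) and over Italia (0.0261).

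Among the listed flavonoid 3',5'-hydroxylase genes, LOC109122765 had the highest mean FPKM over the 27 samples. In Zaomeiguixiang it was at 2.05, 15.85 and 7.94 FPKM at EL35, 24.0, 9.83 and 6.78 at EL36 and 49.59, 15.0 and 5.01 at EL38, and at 0 to 0.98 FPKM in the others. All 3 libraries of Xiangfei EL36, Xiangfei EL38 and Italia EL36 were at 0 counts of LOC109122765, and Zaomeiguixiang was at least 199-fold (adjusted p = 0.024), 379-fold (0.0113) and 204-fold (0.019) higher. Without Zaomeiguixiang replicate 1 of the stage, which held most of its counts, these limits were 125, 179 and 128, and the adjusted p was 0.0654, 0.0406 and 0.0512. LOC100241335 had 0.79, 5.85 and 6.17, then 7.17, 4.38 and 3.6, then 14.05, 10.22 and 4.48 FPKM over the stages in Zaomeiguixiang, and 0 to 1.08 FPKM in the others. It was at least 371-fold higher than in Xiangfei at EL38, where all Xiangfei libraries were at 0 (adjusted p = 0.00414). That limit ran from 299 to 449 over the Zaomeiguixiang EL38 replicates left out in turn, with 299 reached without replicate 1. LOC100241335 was also higher than in Italia at EL36 (adjusted p = 0.0111), where the 3 Italia libraries held 1 count of it, so that no fold is given. Without any 1 of these Italia libraries that adjusted p was 0.0509 to 0.078. The gene F3'5'H was at 2.02 to 21.96 FPKM in Zaomeiguixiang against at most 0.89, and LOC104877273 at 0.16 to 3.79 against at most 0.2. These copies resemble each other, fragments may have been split between them, and their separate levels are uncertain. LOC100232896, a flavonoid 3',5'-hydroxylase that the list missed and that is named after its values had been seen, had 0.62 to 35.44 FPKM in Zaomeiguixiang and at most 0.69 in the others. Not every gene of this annotation had the pattern of UFGT. The listed gene LOC100256733, also named after its values had been seen, was at 0 to 0.05 FPKM in Zaomeiguixiang and 0 to 96.86 in the others. Its median was 0 in both sets.

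Of the transporters, LOC100250967, which resembles the vacuolar flavonoid transporter TRANSPARENT TESTA 12 of Arabidopsis, had 19.57, 110.57 and 77.54 FPKM at EL35, 207.33, 92.76 and 78.73 at EL36 and 388.73, 146.47 and 71.45 at EL38 in Zaomeiguixiang. The other cultivars had 2.52 to 27.53 FPKM of it, so that only EL35 replicate 1 of Zaomeiguixiang lay within their range. It was higher than in Xiangfei at EL35 (log2 fold change 3.46, SE 0.84, adjusted p = 0.0478) and EL38 (4.14, SE 0.87, adjusted p = 0.0076) and than in Italia at EL35 (3.07, SE 0.83, adjusted p = 0.0429), EL36 (3.87, SE 0.86, adjusted p = 0.0139) and EL38 (4.79, SE 0.90, adjusted p = 0.0048). LOC100256121, another gene of this transporter family, was at 0.7 to 7.06 FPKM in Zaomeiguixiang and 0 to 1.26 in the others, and passed against Xiangfei at EL38 (adjusted p = 0.0419), where the 3 Xiangfei libraries held 3 counts of it. The gene annotated as an anthocyanin malonyltransferase with the highest mean, LOC100256273, was at 0 in most libraries and at most 3.16 FPKM.

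The genes of the tannin branch did not follow UFGT. LAR2 and ANR, which make the flavan-3-ols of seed and skin tannins, overlapped between the cultivars. LAR2 was at 8.8 to 50.95 FPKM in Xiangfei. It reached 187.56 FPKM in a Zaomeiguixiang EL36 library and 155.64 in an Italia EL35 library, and ANR reached 201.47 FPKM in a Xiangfei EL35 library, 104.31 in Italia EL35 and 70.29 in Zaomeiguixiang EL35. The EL35 values of Italia and Zaomeiguixiang were those of the seed-rich replicates 3, and the part of seeds in them was not tested. Neither passed a threshold in the 6 comparisons of Zaomeiguixiang. Other calls concerned LOC100245030, annotated as flavonol synthase or flavanone 3-hydroxylase, which was higher in Zaomeiguixiang than in Italia at EL36 (2.5 to 3.31 against 0 to 0.08 FPKM, adjusted p = 0.0308). LOC100254375, annotated as flavonoid 3'-monooxygenase-like, was lower in Zaomeiguixiang than in Italia at EL36 (log2 fold change -5.11, SE 1.2, adjusted p = 0.0242) and EL38 (adjusted p = 0.0257). The 3 Zaomeiguixiang libraries together held 11 counts of LOC100254375 at EL36 and 2 at EL38, so that no fold is given at EL38. At EL35 its mean was 15.8 FPKM in Zaomeiguixiang and 5.45 in Italia (adjusted p = 0.542).

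LOC100853472, listed as MYB113-like with the synonyms MybA1 and MybA3, belongs to the MYBA factors. It had 92.73, 18.05 and 42.41 FPKM in Zaomeiguixiang at EL35, 6.9, 5.2 and 12.34 at EL36 and 167.05, 39.45 and 5.58 at EL38. In Xiangfei it had 0.86, 8.0 and 2.1, then 57.53, 2.89 and 4.79, then 0, 0 and 7.18 FPKM, and in Italia 0.24, 0.95 and 0.1, then 0.53, 1.9 and 0.11, then 20.39, 1.9 and 1.57 FPKM. Unlike UFGT, the MYB gene overlapped between cultivars: Xiangfei EL36 replicate 1 exceeded 7 of the 9 Zaomeiguixiang libraries. It was higher in Zaomeiguixiang than in Italia at EL35 (log2 fold change 6.62, SE 1.8, adjusted p = 0.0423), and the log2 fold changes over Xiangfei were 3.42 (adjusted p = 0.376), -1.41 (0.617) and 4.74 (0.0748). Its gene copies are similar, so that fragments of neighbouring MYBA genes may have been assigned to it.

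**Figure D3:**
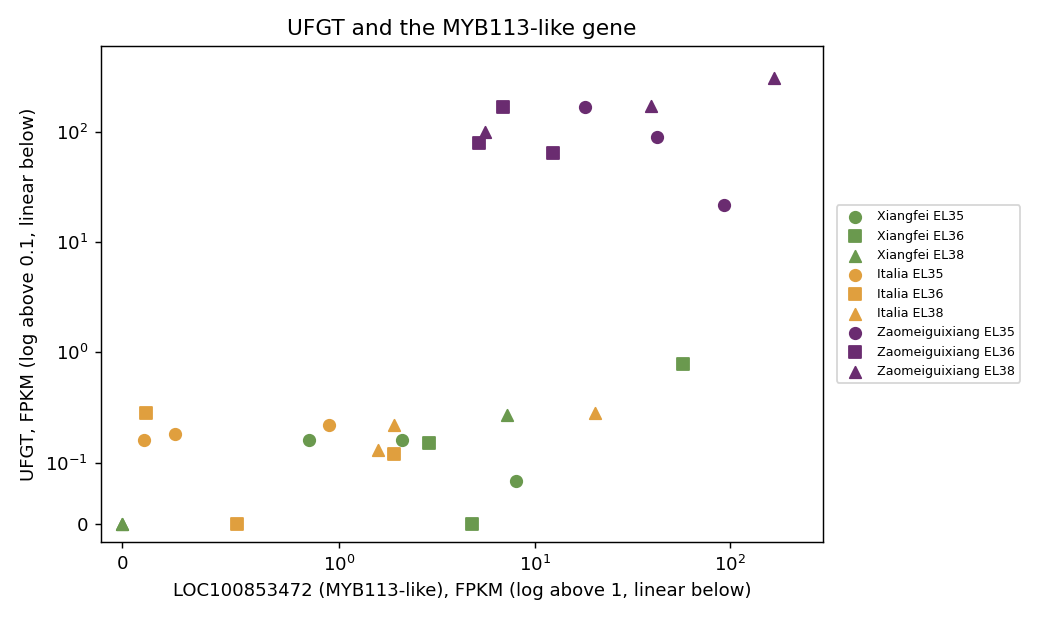
UFGT in FPKM (vertical axis, logarithmic above 0.1 and linear below) against the MYB113-like gene LOC100853472 in FPKM (horizontal axis, logarithmic above 1 and linear below) in the 27 samples, coloured by cultivar with a marker for each stage. Xiangfei EL36 replicate 1, at 57.53 FPKM of LOC100853472 and 0.78 FPKM of UFGT, lies far below the Zaomeiguixiang samples of the same MYB level, and Xiangfei EL38 replicates 1 and 2 coincide at 0.

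The library with the most of the MYB gene outside Zaomeiguixiang was the one with the most UFGT there. Xiangfei EL36 replicate 1 had 57.53 FPKM of LOC100853472, 0.78 of UFGT and 1.97 of GST4, the highest of the 18 libraries in each of these genes, while Zaomeiguixiang EL36 replicate 2 had 79.55 FPKM of UFGT at 5.2 FPKM of LOC100853472. In Xiangfei EL36 replicate 1, UFGT rested on 24 counts and GST4 on 22. Whether counts this low are expression or carry-over between libraries was not tested. The MYB90-type genes LOC100233098 and LOC100232838, which lie 3 and 6 places from LOC100853472 in the RefSeq gene order and are named after their values had been seen, were also highest among the 18 in that library, at 27.05 and 58.15 FPKM. LOC100233098 was at 9.96 to 150.16 FPKM in Zaomeiguixiang and LOC100232838 at 1.79 to 34.76, so that this Xiangfei library exceeded every Zaomeiguixiang library in LOC100232838. That Xiangfei library also had a seed sum of 1032 FPKM, above the Xiangfei median, and the part of this in the result was not tested.

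Among the partners of the MYB factors, MYC1, a bHLH protein, was lower in Zaomeiguixiang than in Xiangfei at EL38 (29.0 ± 6.75 against 66.2 ± 26.2 FPKM, log2 fold change -1.68, SE 0.46, adjusted p = 0.0325). Italia was also lower than Xiangfei in MYC1 at EL38 (log2 fold change -1.61, SE 0.46, adjusted p = 0.0384), and Zaomeiguixiang and Italia differed by -0.07 there. WDR1, a WD-repeat protein, was between 39.5 and 177.28 FPKM in all libraries and passed no threshold in these comparisons. MYB5b (LOC100232973) had 12.88 to 35.68 FPKM in Zaomeiguixiang and 10.15 to 72.95 in the others, and MYBPA1, a tannin regulator, 4.08 to 99.8 against 0.91 to 87.73. MYB12, listed as the flavonol factor MYBF1, was at most 8.66 FPKM, with its highest group mean, 4.83 FPKM, in Zaomeiguixiang EL35.

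Between Italia and Xiangfei, whose UFGT levels overlapped, 0 pathway genes were called at any stage at the stricter threshold (0.435%, 0.303% and 0.416% of all genes were). By edgeR, 10, 17 and 18 of the 60 pathway genes had an unadjusted p under 0.05, beside 17.2%, 21.0% and 22.6% of all genes. DESeq2 called 1, 2 and 3 pathway genes, beside 2.86%, 3.48% and 3.78% of all genes. At an adjusted p of at most 0.05 there were 2 pathway genes at EL35 (3.44%), 4 at EL36 (5.1%) and 5 at EL38 (6.03%), LDOX among them at each stage as lower in Italia. Between EL38 and EL35, 0 pathway genes were called in Xiangfei (0.00473%), Italia (0.00946%) and Zaomeiguixiang (0.0%), and 0 between EL36 and EL35 in Zaomeiguixiang (0.0%). By edgeR, 13, 14, 16 and 6 of the 60 had an unadjusted p under 0.05 in these comparisons, beside 16.2%, 17.4%, 13.3% and 14.5% of all genes. DESeq2 called 2, 1, 1 and 1 of the list, beside 1.08%, 2.28%, 1.46% and 0.947% of all genes. At an adjusted p of at most 0.05 these counts were 2 (1.17%), 2 (2.95%), 2 (1.53%) and 1 (1.07%).

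To find the genes most like UFGT, Pearson's r of log2(FPKM + 1) was taken over the 27 samples for 15322 other genes. The samples fall into 9 with much UFGT and 18 with little, so that this r mostly ranks genes by how cleanly they separate the cultivars, and values within each set are given too. The nearest were LOC100853950 (r = 0.991) and LOC100254843 (r = 0.990), both annotated as eugenol synthase 1-like and 3 places apart in the RefSeq gene order, then GST4 (0.983), the thioredoxin H-type-like gene LOC100250566 (0.977), LOC100252144 (0.969), LOC109122765 (0.968), LOC100241335 (0.963), the F-box gene LOC100855189 (0.962), the gene BGI_novel_G001334 of no known name (0.961) and LOC104877823, related to Myb4 (0.958). The eleventh gene stood at 0.955, and 32 genes had an r of at least 0.9. The median r was 0.163 over all genes and 0.151 over the 44 pathway genes compared.

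Of these 10 genes, 5 followed UFGT also within Zaomeiguixiang and 5 did so little. LOC100853950 had 24.24 to 133.3 FPKM and LOC100254843 27.32 to 155.33 FPKM in Zaomeiguixiang against at most 0.33 and 0.25 in the others. Within the 9 Zaomeiguixiang libraries their r to UFGT was 0.745 and 0.722, and it was 0.467 and 0.449 without the 2 libraries farthest from the median UFGT level. LOC100250566 had 83.59 to 292.95 FPKM against 0 to 0.69, with r = 0.145 to UFGT within the 9 Zaomeiguixiang libraries, and LOC100252144, LOC100855189, BGI_novel_G001334 and LOC104877823 had -0.217, 0.173, 0.128 and 0.14 there.

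Within the 9 Zaomeiguixiang libraries alone, the genes most like UFGT were LOC100241335 (r = 0.964), LOC100250967 (0.954), the xylogen-like gene LOC100261518 (0.930), LOC109122765 (0.928) and GST4 (0.923), and the sixth stood at 0.883. These libraries share 1 genotype and their depths differ. Of these 5 genes, 4 were on the pathway list, and the median r was 0.288 over the 44 pathway genes and -0.07 over all genes. Without the 2 libraries farthest from the median UFGT level, r over the other 7 was 0.822 for LOC100241335, 0.786 for LOC100250967, 0.678 for LOC100261518, 0.799 for LOC109122765 and 0.624 for GST4. LOC100261518 did not separate the cultivars, at 14.29 to 120.23 FPKM in Zaomeiguixiang and 23.42 to 547.0 in the others, and had r = -0.5 to UFGT over the 18 others. The MYB gene LOC100853472 had r = 0.0361 within Zaomeiguixiang and 0.641 over the 18 other libraries, where UFGT rests on at most 24 counts a library.

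**Figure D4:**
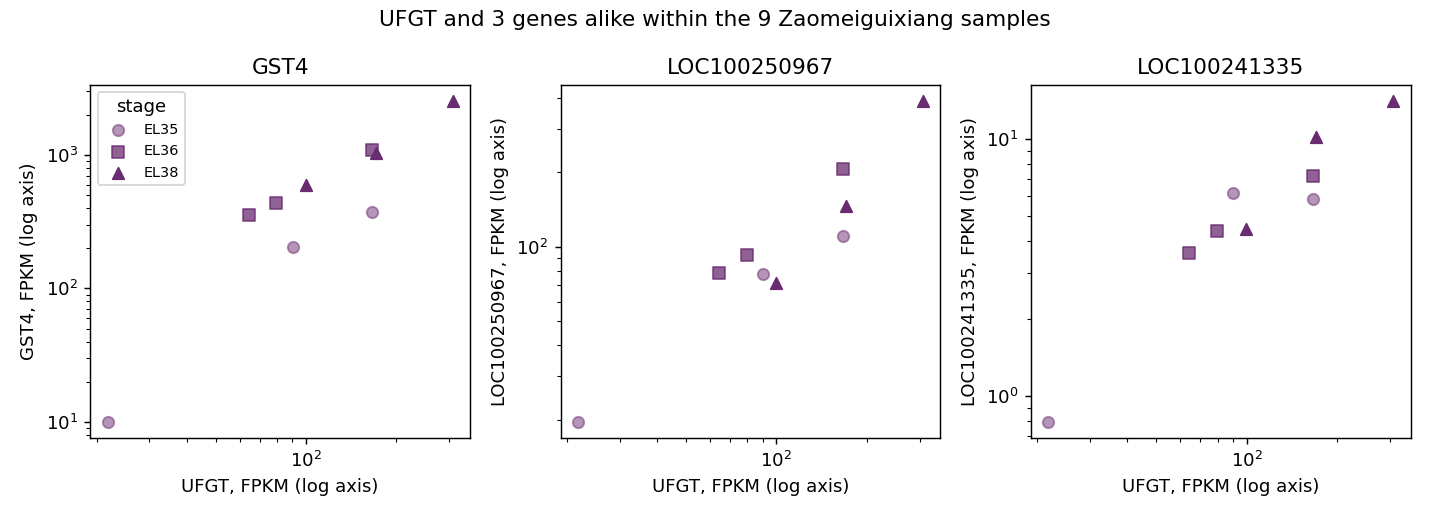
GST4, the transporter gene LOC100250967 and the flavonoid 3',5'-hydroxylase LOC100241335 (vertical axes, FPKM, logarithmic) against UFGT (horizontal axes, FPKM, logarithmic) in the 9 Zaomeiguixiang samples, with a marker for each stage. In each panel EL35 replicate 1, at 21.77 FPKM of UFGT, is the lowest point and EL38 replicate 1, at 308.11, the highest, and in GST4 the EL35 samples lie lower for their UFGT level than the later ones.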

How the data were processed

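RNA from berries was sequenced in 27 samples, which the labels place in 9 groups. The authors filtered reads with SOAPnuke, mapped them with HISAT2 to the V2 genome to detect further transcripts, mapped clean reads to the merged transcripts with Bowtie2, and estimated levels with RSEM. The authors deposited expected counts, which are not normalized, and FPKM rounded to 2 decimals, with no pooling, and unlisted genes were set to 0. The lowest listed FPKM was 0.01.

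The members and lists were chosen with earlier results of these data known. Expected counts were rounded and tested with edgeR 4.0.16 in R 4.3.3 (TMM normalization, default filter on low counts, 9 groups in 1 fit, common dispersion 0.526). FPKM were described on log2(FPKM + 1). DESeq2 1.42.0 was an alternative, with DESeq2 size factors in edgeR, no filter, 6-sample fits, a replicate block, an adjusted p of 0.05, each replicate left out, a pseudocount of 0.1, and log2 CPM, counts scaled to the library total (prior count 2). Leaving out the 3 libraries with the most seed transcripts was chosen after seeing the data. The fit was tested on simulated data. Python 3.11.15 ran numpy 2.4.6, pandas 2.3.3, matplotlib 3.10.9 and scipy 1.17.1.

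Named were UFGT, per pathway step the gene with the highest mean FPKM, listed genes called in a comparison of Zaomeiguixiang with another cultivar, and the 10 and 5 genes most like UFGT over all samples and within Zaomeiguixiang. The 3 genes of most similar protein that the rule also asked for were not analysed here, and genes with the same annotation were given instead. Other exceptions are stated beside the gene. A limit of 3 counts corresponds to 1.1e-05% to 1.77e-05% of a library. Gene order came from the RefSeq annotation of assembly ASM3070453v1, and 22426 of 24590 reference identifiers matched it. Soluble solids and sequences were not used here.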

Additional observations from a re-analysis of the deposited data

How the results depend on the processing

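The direction of every UFGT difference between Zaomeiguixiang and the other cultivars held under all alternatives run. With a pseudocount of 0.1 in place of 1, the UFGT log2 difference over Xiangfei was 8.26, 8.40 and 10.13 at EL35, EL36 and EL38, and over Italia 7.92, 8.87 and 9.16. On log2 CPM it was 8.38, 8.53 and 10.41 over Xiangfei and 8.02, 9.12 and 9.12 over Italia with TMM library sizes, and 8.53, 8.71, 10.60 and 8.14, 9.21, 9.33 with raw totals. These scales weigh values near 0 differently by construction. For the same reason Italia over Xiangfei was 0.34 at EL35 and 0.97 at EL38 with a pseudocount of 0.1, 0.36, -0.59 and 1.29 at the 3 stages with TMM and 0.40, -0.51 and 1.27 with raw totals. Xiangfei EL38 over EL35 was -0.55, -0.88 and -0.75 on these 3 scales, and Italia EL38 over EL35 was 0.13 with raw totals. With each replicate left out in turn, UFGT differences over Xiangfei ran from 5.34 to 6.77 at EL35, 5.84 to 6.51 at EL36 and 6.92 to 7.73 at EL38, and over Italia from 5.26 to 6.70, 6.01 to 6.69 and 6.77 to 7.57. In the same way Italia over Xiangfei ran from 0.03 to 0.09, -0.34 to 0.07 and 0.10 to 0.27, Xiangfei EL38 over EL35 from -0.18 to 0.0, Italia EL38 over EL35 from -0.01 to 0.07, and Zaomeiguixiang EL38 and EL36 over EL35 from 0.50 to 1.94 and -0.37 to 1.07. Of the 10 genes most like UFGT, 2 were also among the 10 by Spearman's rho and 3 among the 10 within Zaomeiguixiang.

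Counts of pathway genes called depended on the tool and threshold. DESeq2 called 3, 3 and 6 over Xiangfei, 3, 11 and 7 over Italia, and 1, 2 and 3 for Italia over Xiangfei at EL35, EL36 and EL38, and 2, 1 and 1 for EL38 over EL35 in Xiangfei, Italia and Zaomeiguixiang and 1 for EL36 over EL35. For Zaomeiguixiang over Xiangfei at EL38 and over Italia, the share of all genes that DESeq2 called is not given here. The counts of 6, 3, 11 and 7 can therefore not be set against that share. An adjusted p of 0.05 gave 4, 3 and 9, then 4, 11 and 7, then 2, 4 and 5, then 2, 2, 2 and 1 in the same order. Without a filter, Zaomeiguixiang over Xiangfei at EL36 gave 1 (GST4) and Italia over Xiangfei at EL35 gave 1. The 6-sample fits gave 0 over Xiangfei at EL38 and 0 over Italia at EL35. Without the 3 seed-rich libraries, over Xiangfei at EL36 there was 1 and over Italia at EL35 0. With replicates left out in turn the count ran from 0 to 1 over Xiangfei at EL38 and was 0 to 0 in the other comparisons, with 2 libraries in 1 group. Where a cause is not named, the cause was not tested. Of the results for single genes, 397 kept their side of the threshold, 31 passed it only under the alternative and 26 no longer did, with 0 reversed.

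With the replicate number as a block, the calls over Italia fell from 1 to 0 at EL35, EL36 and EL38, and the other counts did not change. Samples of the same number in different groups did not deviate together on average (mean r -0.003 over 108 pairs, 0.004 over 216 pairs of different number). Of the same-number pairs, 32 were over 0.1, and 11 of 27 samples correlated best with their own number. A mean over pairs cannot tell whether some samples of the same number share a source. Outside Zaomeiguixiang, UFGT rests on 9 to 29 counts a group.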
